A study of Mus musculus with 36 samples.

Results

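Interleukin-1 and inflammasome genes were followed through 2 consecutive skin wounds in the progeny of 2 hair follicle stem cell populations. The 9 genes (Il1a, Il1b, Il1rn, Il1r1, Il18, Il33, Aim2, Casp1 and Pycard) were chosen by name. Of these, 8 had a row in both count tables, among 20181 genes in the Lrig1 GL table and 22587 in the Lgr5 GL table. Il1b, which encodes interleukin-1 beta, had no row in either table, so no value can be given for it.

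Lrig1-EGFP-ires-CreERT2 and Lgr5-EGFP-ires-CreERT2 mice, both carrying Rosa26-fl/STOP/fl-tdTomato, received hydroxytamoxifen on the tail skin before any wound, and this also held for the unwounded 0w mice. The tdTomato+ cells sorted later are the genetically labelled (GL) progeny of Lrig1+ cells of the hair follicle junctional zone, or of Lgr5+ cells of the lower hair follicle. Unwounded skin gave the 0w cells, a first full-thickness wound (pw1) the cells of 1w, 2w, 4w and 8w, and a second, overlapping wound made at 8w the cells collected 1w later (1w pw2). Mice were adults at labelling, and each later group was older and longer past labelling than 0w. No unwounded group was sampled at the later times, so wound, age and time since labelling cannot be told apart. Per the study's methods mice of both sexes were used and the sampled zone held the wound bed as well as distal follicles. Each of the 12 groups had 3 libraries, which made 36 libraries of mini-bulk RNA-seq, a full-length poly(A) method for small pools of sorted cells.

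In the interleukin-1 system, ligands bind a receptor on the target cell and switch on NF-kB and AP-1 target genes, and a natural antagonist competes for the same receptor. The inflammasome is a protein complex in which a sensor recruits an adaptor and caspase-1, which then cuts interleukin-1 beta and interleukin-18 into their active forms. In epidermis, keratinocytes store interleukin-1 alpha and interleukin-33 as alarm signals, and genes of this system have been named in skin as carriers of inflammatory memory.

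Total counts were 765252 to 3365666 per Lrig1 GL library and 1297798 to 6960537 per Lgr5 GL library. Gm12415, a predicted gene, took 12 to 52.1% of the counts of Lgr5 GL libraries. Mitochondrially encoded transcripts took 3.15 to 5.38% of the counts of Lrig1 GL libraries at 0w and 10.9 to 14.4% at 8w pw1. The part of this shift in the values of 8w pw1 against 0w was not tested. A level of 3 counts, used as the detection floor, was 1.01 to 3.39 CPM (counts scaled to library size) in Lrig1 GL libraries and 0.389 to 2.92 CPM in Lgr5 GL libraries. Floors cover counting error only, since the reads carry no molecular identifiers. Keratinocyte genes Krt5 and Krt14 were present in all 36 libraries, with at least 2902 counts of Krt5. Of 16 immune cell markers, 7 had a row in the Lrig1 GL and 8 in the Lgr5 GL table, and the T cell gene Cd3e, the Langerhans cell gene Cd207 and the myeloid genes Lyz2 and Tyrobp had none. Of those with a row, Ptprc was found in 13 of 18 Lrig1 GL and 16 of 18 Lgr5 GL libraries. The highest counts in a Lrig1 GL and a Lgr5 GL library were 31 and 153 for Ptprc and 83 and 97 for Cd68. They were 75 and 229 for H2-Ab1 and 32 and 17 for Cd74. The summed immune markers ran from 0 to 34.9 CPM at 0w, from 364 to 2401 CPM at 1w pw1 and from 824 to 982 CPM at 1w pw2 in Lrig1 GL cells. S100a8 and S100a9, which stressed keratinocytes also make, carried most of this sum, and without them it was 0 to 34.1 CPM at 0w, 3.39 to 24.7 CPM at 1w pw1 and 0.472 to 17.1 CPM at 1w pw2. The full sum in Lgr5 GL cells ran from 10.7 to 28.8 CPM at 0w, from 69.1 to 464 CPM at 1w pw1 and from 9.50 to 28.9 CPM at 1w pw2. Without S100a8 and S100a9 it was 5.45 to 26.6 CPM at 0w, 2.17 to 79.6 CPM at 1w pw1 and 8.66 to 18.5 CPM at 1w pw2. The part of immune cells in the values below was not tested. In bulk libraries, fewer cells that express a gene and less RNA per cell cannot be told apart.

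On a scale that allows genes to be compared, CPM per kb of exon, Pycard had the highest level in both populations and Il1a and Aim2 the lowest. The mean of the 6 group means in Lrig1 GL cells was 56.2 CPM per kb for Pycard, 27.9 for Il33, 18.1 for Casp1, 9.40 for Il18, 5.69 for Il1rn, 3.13 for Il1r1, 1.04 for Il1a and 0.308 for Aim2. Neighbours in this order overlapped in the range of their group means, so the order of adjacent genes is not separated from the spread between time points. The order in Lgr5 GL cells was Pycard at 30.5, Casp1 at 6.75, Il18 at 5.15, Il1r1 at 3.17, Il33 at 1.98, Il1rn at 0.747, Aim2 at 0.609 and Il1a at 0.287 CPM per kb. There Pycard group means ran from 27.2 to 35.4 and those of Casp1 from 2.48 to 14.3, so Pycard stood apart from the rest, and the neighbours after it overlapped. Il33 followed Pycard in Lrig1 GL cells but came after Casp1, Il18 and Il1r1 in Lgr5 GL cells.

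**Figure D1:**
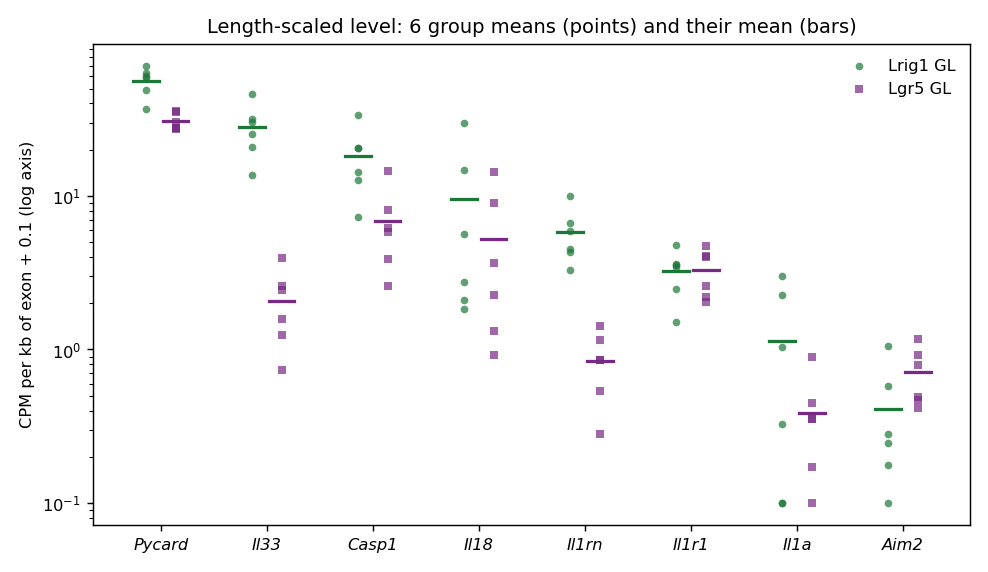
Length-scaled level (CPM per kb of exon plus 0.1, log axis) of the 8 listed genes in Lrig1 GL (circles) and Lgr5 GL cells (squares); each point is the mean of 3 libraries at 1 time point and the bar is the mean of the 6 time points. Levels were scaled within each population's own table, not on a scale common to both. Pycard was highest in both populations. Il33 and Il1rn were lower in Lgr5 GL than in Lrig1 GL cells, as they were by their medians on a common scale.

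Sequence before the start sites is shown for the 3 genes with a match to the motifs through which interleukin-1 signals act. RefSeq on GRCm38.p6 gives 13 start sites for the 9 genes. In the 250 bases before each, both strands were searched for the AP-1 motif TGANTCA and for the NF-kB consensus, which do not overlap in these matches. AP-1 was found before 2 of the 13 starts (Il1a and 1 start of Il1rn) and NF-kB before 1 (the downstream start of Il1r1), whereas 6.75% and 3.9% of all 32817 promoters held them. The matching stretches are printed on the strand of the gene with the motif in capitals.
Il1a, chr2:129309973-129310004, minus strand: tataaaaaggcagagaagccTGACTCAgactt
Il1rn, chr2:24336699-24336745, plus strand: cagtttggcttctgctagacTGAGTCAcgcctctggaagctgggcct
Il1r1, chr1:40266336-40266383, plus strand: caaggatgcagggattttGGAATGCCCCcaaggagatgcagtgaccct
A match is a description of the letters and not of a bound site. No match was found in the windows of Il1b, Il18, Il33, Aim2, Casp1 and Pycard.

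The first question was whether these genes changed during repair. None of the 6 genes tested for Lrig1 GL and none of the 7 tested for Lgr5 GL cells passed edgeR's quasi-likelihood test across the time course (Benjamini-Hochberg adjusted p under 0.05 over all genes and a log2 fold change beyond 1 up or down). Among all genes the test called 1.63% of 14306 for Lrig1 GL and 1.13% of 18025 for Lgr5 GL cells. The smallest adjusted p of the time course test was 0.222, for Pycard in Lrig1 GL cells, and the smallest in Lgr5 GL cells was 0.347, for Casp1. At an unadjusted p under 0.05 the time course test gave 1 gene, Pycard in Lrig1 GL cells, and neither DESeq2 nor edgeR's likelihood ratio test called any. Il1a in both populations and Aim2 in Lrig1 GL cells had too few counts to be tested within a population.

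No gene was called at a single time point against 0w either, by edgeR or DESeq2, in any of the 5 comparisons in either population. The matching share of all genes called in Lrig1 GL cells was 0.217% at 1w pw1, 0% at 2w pw1, 0.0419% at 4w pw1, 2.82% at 8w pw1 and 1.23% at 1w pw2. The share in Lgr5 GL cells was 1.29% at 1w pw1, 0% at 2w pw1, 0.155% at 4w pw1, and 0% at both 8w pw1 and 1w pw2. At these rates almost no gene of a list of this length would be called. Over all tests, time course and wound comparisons included, 5 of the 48 run for Lrig1 GL and 4 of the 56 run for Lgr5 GL cells had an unadjusted p under 0.05. These shares, 10.4% and 7.14%, were below those of all genes over the same comparisons, 13.3% and 11%.

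**Figure D2:**
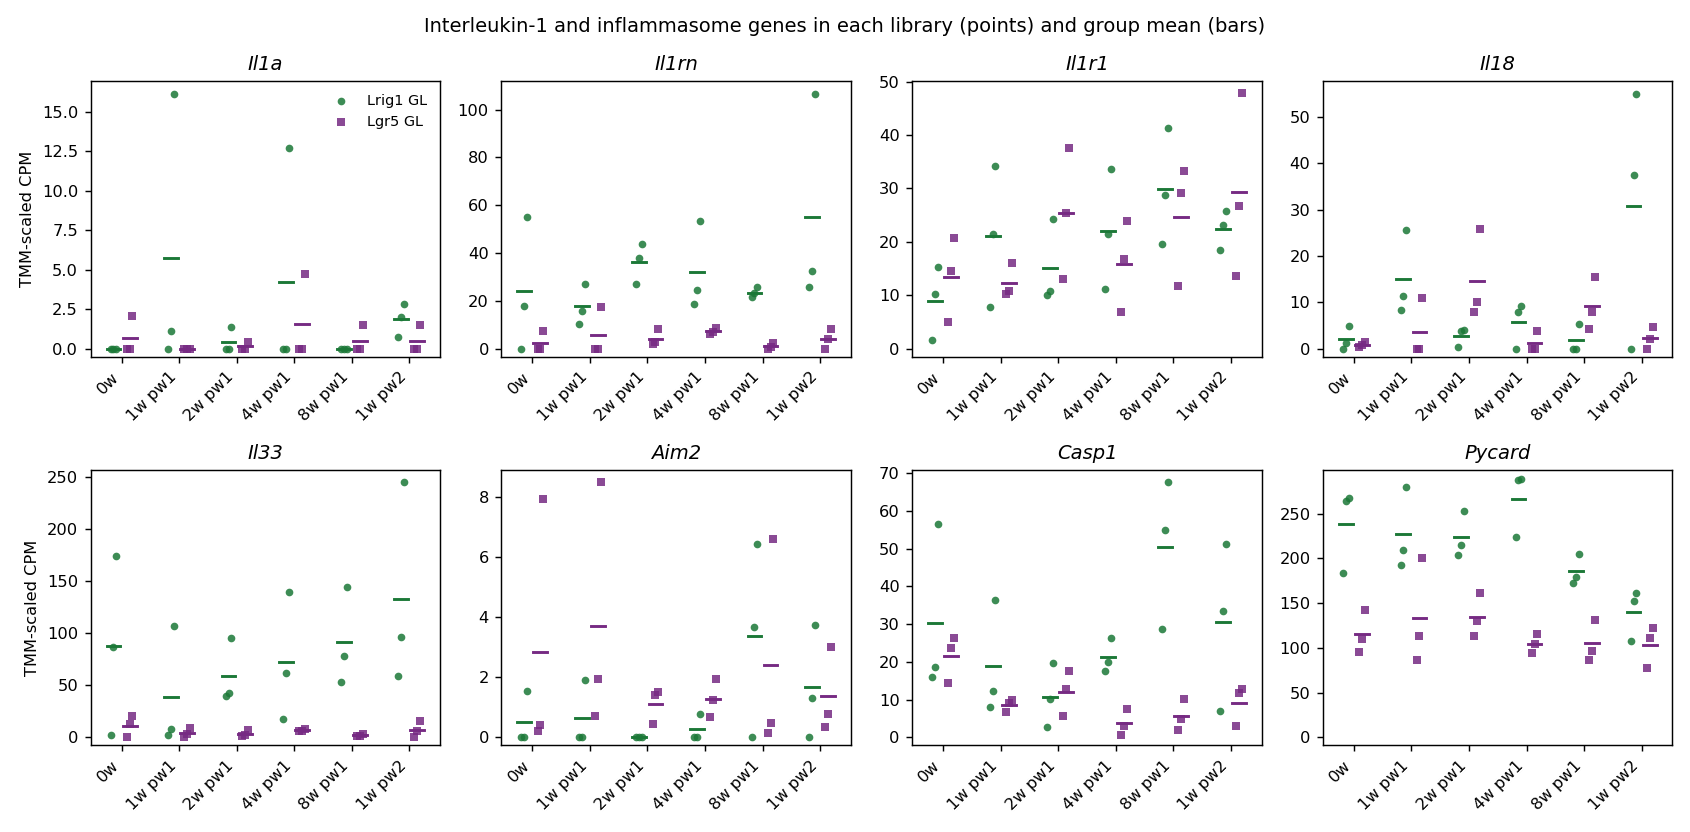
TMM-scaled CPM (linear axes) of the 8 listed genes in every library at each time point, in Lrig1 GL (circles) and Lgr5 GL cells (squares), with bars at the group mean of 3 libraries. Relative to the group mean, the libraries of a time point spread widely for Il18, Il33 and Il1rn and least for Pycard, and Lrig1 GL levels of Il33 lay mostly above those of Lgr5 GL cells. Levels were scaled within each population's own table, not on a scale common to both.

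Among the ligands, Il1a (chr2:129299610-129309972 on GRCm38) was at the edge of detection. Its 3 Lrig1 GL libraries held 0, 0 and 0 counts at 0w, 17, 1 and 0 at 1w pw1, and 3, 0 and 0 at 2w pw1. They held 0, 16 and 0 at 4w pw1, 0, 0 and 0 at 8w pw1, and 6, 2 and 3 at 1w pw2. All 3 libraries at 1w pw2 held counts and none did at 0w or 8w pw1. Of all genes tested, 24.3% and 17.7% did not overlap in these 2 comparisons. Of the 3 values at 1w pw2, 2 were at or under the floor of 3 counts. Of the Lgr5 GL libraries, 13 of 18 were at 0 and the sum over all libraries was 39 counts. At this depth no change of Il1a was detectable.

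Il18 (chr9:50554827-50581840), a ligand of the family that needs caspase-1 for its release, varied widely between libraries of a group. Its biological coefficient of variation, the spread between replicates beyond counting error, was 1.39 in Lrig1 GL cells, the highest of the 6 genes tested there, against a median of 0.609 over all genes. For Lgr5 GL cells it was 1.18 against a median of 0.598. In Lrig1 GL cells Il18 stood at 0, 4.87 and 1.28 CPM at 0w and at 25.6, 11.3 and 8.31 CPM at 1w pw1. These groups did not overlap, as was the case for 13.9% of all genes in this comparison, and the log2 fold change was 2.80 (SE 1.77, edgeR adjusted p = 0.597). At 1w pw2 the values were 0, 55.0 and 37.5 CPM, with the first library below the range of 1w pw1 and the others above it. At 8w pw1 Lrig1 GL libraries stood at 0, 0 and 5.36 CPM and overlapped those at 0w.

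In Lgr5 GL cells Il18 stood at 1.36, 0.83 and 0.345 CPM at 0w, and 2 of these 3 values rest on 4 counts or fewer. At 2w pw1 the values were 10.2, 7.95 and 25.9 CPM and at 8w pw1 they were 15.5, 4.14 and 8.00 CPM. All 3 libraries of each later group lay above all 3 at 0w, which 13.2% and 11.2% of all genes also did in one direction or the other. The log2 fold changes were 4.03 (SE 1.6, edgeR adjusted p = 0.455) at 2w pw1 and 3.35 (SE 1.56, adjusted p = 0.824) at 8w pw1. Between them, at 4w pw1, 2 of 3 libraries were at 0 CPM and the other at 3.77 CPM, so the libraries did not keep 1 level after the wound.

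Il33 (chr19:29925114-29960718), a nuclear alarm signal released from damaged epithelium, was at 174, 2.44 and 86.5 CPM at 0w in Lrig1 GL cells. It was at 107, 7.92 and 2.31 CPM at 1w pw1, at 53.2, 144 and 77.7 CPM at 8w pw1 and at 245, 96.2 and 58.5 CPM at 1w pw2. The range within 0w and within 1w pw1 was so wide that each of the 5 later groups overlapped with 0w. The log2 fold change of 1w pw2 against 1w pw1 was 1.78 with a 95% interval from -0.70 to 4.27 (edgeR adjusted p = 0.684). It was 4.82 without replicate 1 at 1w pw1, 1.17 without replicate 3 at 1w pw1 and 0.96 without replicate 1 at 1w pw2, and not called in any.

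Il1rn (chr2:24336853-24351494) encodes the receptor antagonist. In Lrig1 GL cells it stood at 0, 17.9 and 55.1 CPM at 0w, at 10.4, 27.1 and 15.7 CPM at 1w pw1, at 23.3, 25.6 and 21.4 CPM at 8w pw1 and at 32.6, 107 and 25.6 CPM at 1w pw2. The 3 libraries at 8w pw1 lay close together, and 1 library at 1w pw2 was the highest of all 18. The 1w pw2 and 8w pw1 groups met at 25.6 CPM, on 39 and 42 counts, and are counted as not overlapping only by a margin far below counting error, while 17.7% of all genes did not overlap there. That log2 fold change was 1.23 (SE 0.954, edgeR adjusted p = 0.955), and 0.31 without replicate 2 at 1w pw2. In Lgr5 GL cells Il1rn stood at 7.26, 0 and 0 CPM at 0w and at 6.81, 6.29 and 8.74 CPM at 4w pw1. These groups overlapped, and the edgeR adjusted p across the time course was 0.899.

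Il1r1 (chr1:40225080-40317257) encodes the signalling receptor for interleukin-1 alpha and beta. In Lrig1 GL cells it was at 1.54, 10.2 and 15.4 CPM at 0w, at 19.7, 28.7 and 41.3 CPM at 8w pw1 and at 23.1, 25.8 and 18.4 CPM at 1w pw2. Every library of the last 2 groups lay above every 0w library, which 27.6% and 24.3% of all genes matched in either direction. The log2 fold changes were 1.73 (SE 0.756, 95% interval 0.13 to 3.32, edgeR adjusted p = 0.181) and 1.32 (SE 0.749, -0.26 to 2.90, adjusted p = 0.354), and neither was called. With 2 surrogate variables in the model the first of these became -0.10 (adjusted p = 0.990). That model called 0 of all 14306 genes at 8w pw1 against 0w, where the main run called 404. The Lgr5 GL libraries at 8w pw1, at 29.2, 11.7 and 33.4 CPM, overlapped those at 0w, at 4.99, 20.8 and 14.5 CPM.

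Aim2 (chr1:173350879-173466040), a sensor of DNA in the cytosol, was below or near the floor in most libraries. The 18 Lrig1 GL libraries held 36 counts in all, and 11 of them held none. The highest was 12 counts, at 8w pw1, where the other libraries held 6 and 0. The next highest was 10 counts, at 1w pw2, where the other libraries held 0 and 2. The 18 Lgr5 GL libraries all held Aim2 counts, between 1 and 23. The highest library was at 7.93 CPM at 0w, 8.49 CPM at 1w pw1, 6.63 CPM at 8w pw1 and 3.01 CPM at 1w pw2. The medians of these groups were 0.415, 1.96, 0.487 and 0.778 CPM. In this population Aim2 was tested and its adjusted p across the time course was 0.913. Of 11 related AIM2-like receptor genes, 0 had a row in the Lrig1 GL table and 3 in the Lgr5 GL table, all too low to test; Ifi203 and Ifi204 were the highest, at means of 4.33 and 2.67 counts per library.

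Casp1 (chr9:5298517-5307265) encodes the protease of the inflammasome. Lgr5 GL libraries stood at 26.3, 14.3 and 23.8 CPM at 0w, at 9.79, 6.79 and 9.22 CPM at 1w pw1, at 2.92, 7.54 and 0.672 CPM at 4w pw1, at 4.86, 10.2 and 1.96 CPM at 8w pw1 and at 11.7, 12.8 and 3.01 CPM at 1w pw2. All 12 of these later libraries lay below all 3 at 0w. Groups without overlap made up 19.8%, 14.4% and 12.3% of all genes at 1w pw1, 4w pw1 and 1w pw2, and the share at 8w pw1 is given above. At 2w pw1, with 12.7, 5.58 and 17.6 CPM, the highest library lay within the 0w range.

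The log2 fold change of Casp1 in Lgr5 GL cells was -2.46 (SE 0.826, 95% interval -4.20 to -0.73, edgeR adjusted p = 0.299) at 4w pw1 and -1.92 (SE 0.787, -3.57 to -0.26, adjusted p = 0.769) at 8w pw1. At 1w pw1 it was -1.31 (adjusted p = 0.367) and at 1w pw2 -1.21 (adjusted p = 0.898). None was called, and the 4w pw1 libraries held only 3, 18 and 1 counts. In Lrig1 GL cells Casp1 was at 56.5, 18.7 and 16.0 CPM at 0w and at 55.0, 28.7 and 67.5 CPM at 8w pw1, so these groups overlapped. The lowest Lrig1 GL group was 2w pw1, at 2.68, 10.1 and 19.6 CPM, which also overlapped 0w. Its log2 fold change against 0w was -1.48 (SE 0.808, edgeR adjusted p = 0.552).

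Pycard (chr7:127989708-127993867) encodes the adaptor ASC, which links the sensor to caspase-1. It was the most even of the genes tested: its coefficient of variation, 0.245 for Lrig1 GL and 0.282 for Lgr5 GL cells, was lower than that of more than 95% of all genes tested. Lrig1 GL libraries stood at 184, 267 and 265 CPM at 0w, at 210, 192 and 280 CPM at 1w pw1, at 172, 205 and 180 CPM at 8w pw1 and at 161, 152 and 107 CPM at 1w pw2. The 3 libraries after the second wound were the lowest of the population and overlapped no other group, and non-overlap of 1w pw2 with 1w pw1 was seen for 20% of all genes.

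The log2 fold change of Pycard at 1w pw2 was -0.76 against 0w (SE 0.263, 95% interval -1.32 to -0.21, edgeR adjusted p = 0.138) and -0.70 against 1w pw1 (SE 0.263, -1.25 to -0.14, adjusted p = 0.461). After a correction for GC content the first became -1.38 with an adjusted p of 0.0482, the only call of any of the 9 genes within a population in any alternative run. DESeq2 gave an adjusted p of 0.0350 for this change at a log2 fold change of -0.77, below the fold threshold. Pycard in Lgr5 GL cells was at 111, 122 and 77.6 CPM at 1w pw2 and at 109, 142 and 95.1 CPM at 0w, which overlap.

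The second wound against the first asks whether cells that had healed once responded differently. In this comparison of 1w pw2 with 1w pw1, no gene of the 9 was called by edgeR in either population, while 0% of all genes were called for Lrig1 GL and 0.266% for Lgr5 GL cells. At an unadjusted p under 0.05 there was 1 gene, Pycard in Lrig1 GL cells, and DESeq2 called none. Of the 6 genes tested in Lrig1 GL cells, 5 had a positive and Pycard a negative estimate, with a median log2 fold change of 0.85 beside -0.01 over all genes. For Lgr5 GL cells 3 of 7 were positive and the median was -0.37 beside 0.09. The intervals of all but Pycard in Lrig1 GL cells included 0, and they were wide: that of Il1rn in Lrig1 GL cells ran from -0.42 to 3.70 and that of Il18 in Lgr5 GL cells from -3.70 to 2.22. A change of 2-fold or more in either direction is inside most of these intervals.

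Against healed skin (1w pw2 with 8w pw1) no gene of the 9 was called by edgeR, beside 0.00699% of all genes for Lrig1 GL and 0% for Lgr5 GL cells. The smallest adjusted p was 0.865, for Il18 in Lrig1 GL cells, and this was the 1 test with an unadjusted p under 0.05. DESeq2 called none.

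**Figure D3:**
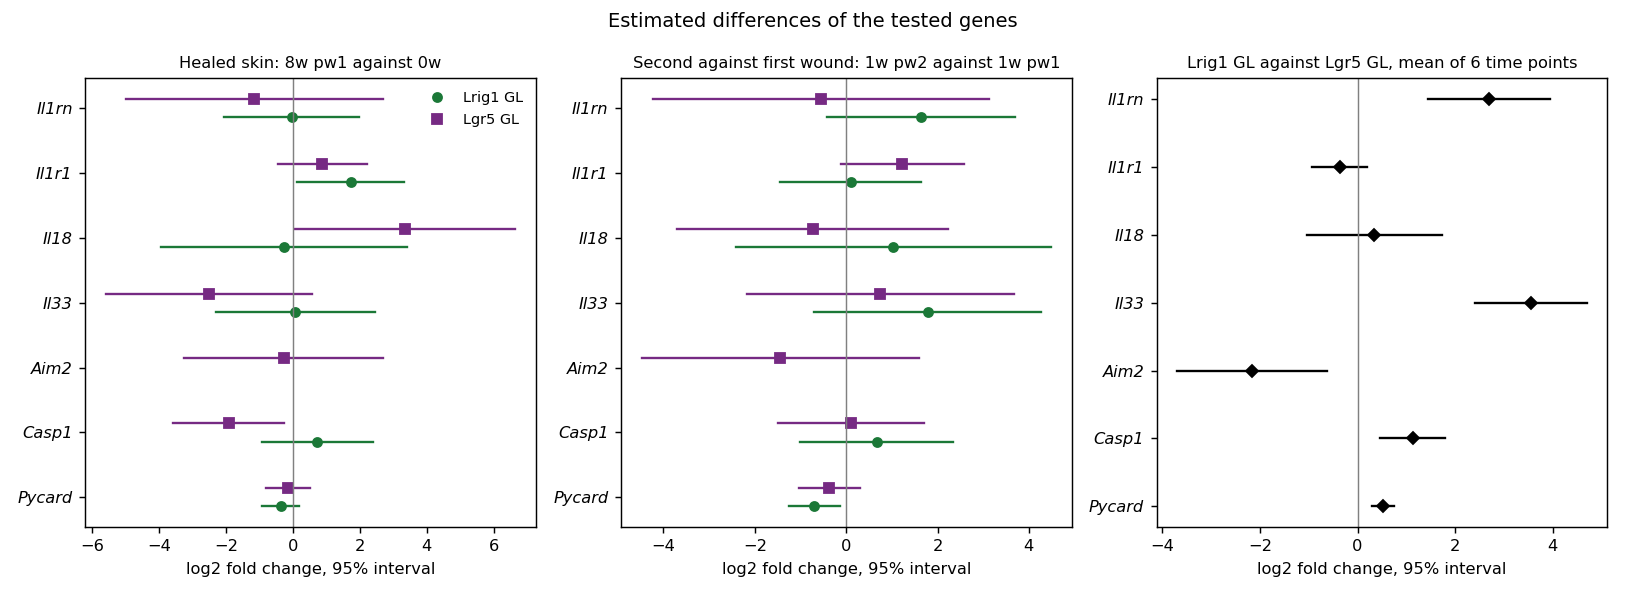
Log2 fold changes with 95% intervals from edgeR for 8w pw1 against 0w (left) and 1w pw2 against 1w pw1 (middle) in Lrig1 GL (circles) and Lgr5 GL cells (squares), and for Lrig1 GL against Lgr5 GL cells averaged over the 6 time points (right, diamonds). Aim2 in Lrig1 GL cells could not be tested within the population, and in the right panel, where the position of Aim2 depends on the prior count, the intervals of Il1rn, Il33, Casp1 and Pycard lie above 0 and that of Aim2 below 0.

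The populations were compared in 1 model over both tables. At 0w none of the 8 genes was called by edgeR, beside 2.9% of 16153 genes. An unadjusted p under 0.05 was seen for 2826 of the 16153 genes and for 1 of the 8. This was Pycard, which was 0.70 higher in Lrig1 GL cells on the log2 scale (SE 0.277, adjusted p = 0.177). Whether a change over time differed between populations was tested for 4 steps, and no gene was called by edgeR in any. An unadjusted p under 0.05 was seen for Il1a from 0w to 1w pw1, as for 2425 of the 16153 genes. It was also seen for Casp1 from 0w to 8w pw1, as for 2845 of them. The Il1a estimate rests on Lrig1 GL libraries at 0w and Lgr5 GL libraries at 1w pw1 that held no count. It therefore does not measure a difference. The share of all genes called was 0.0495% for 0w to 1w pw1, 1.11% for 0w to 8w pw1, 0.155% for 0w to 1w pw2 and 0.0557% for 1w pw1 to 1w pw2. The difference for Casp1 from 0w to 8w pw1, 2.71 on the log2 scale (SE 1.12, unadjusted p = 0.0218), had an adjusted p of 0.200.

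Averaged over the 6 time points, a comparison added after the values were seen, 5 of the 8 genes differed between populations by edgeR, beside 33.9% of all genes. Il33, Il1rn, Casp1 and Pycard were higher in Lrig1 GL cells and Aim2 was higher in Lgr5 GL cells, while Il1a, Il1r1 and Il18 were not called. The median difference of the 8 genes was 0.43 beside -0.08 over all genes on the log2 scale. The populations came from different transgenic lines and separate count tables with different depths, so the population, the line and the library set cannot be told apart. Fibroblast markers also moved with the population: 6 markers were sought, the 5 listed for Lrig1 GL cells summed to 2.52 to 89.6 CPM per library, and the 6 listed for Lgr5 GL cells to 54.9 to 378 CPM. The collagen gene Col1a1 held 0 to 9 counts in Lrig1 GL and 25 to 180 in Lgr5 GL libraries, and the part of fibroblasts in the differences was not tested.

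Il33 had the widest of the called differences, 3.55 higher in Lrig1 GL cells on the log2 scale (SE 0.563, 95% interval 2.41 to 4.70, edgeR adjusted p = 1.43e-05). On a scale common to both tables its median over 18 libraries was 62.7 CPM for Lrig1 GL and 5.42 CPM for Lgr5 GL cells. The 3 libraries of each population did not overlap at 4 of the 6 time points, from 2w pw1 to 1w pw2. At 8w pw1 Lrig1 GL libraries held 48.8 to 134 CPM and Lgr5 GL libraries 1.01 to 3.97 CPM, and at 0w and 1w pw1 they overlapped. For scale, the populations did not overlap for 18.1% of all genes at 0w, 24.9% at 1w pw1, 23.4% at 2w pw1, 24.6% at 4w pw1, 40.9% at 8w pw1 and 38% at 1w pw2.

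Il1rn was 2.70 higher in Lrig1 GL cells on the log2 scale (SE 0.614, 95% interval 1.44 to 3.95, edgeR adjusted p = 0.00104). Its median was 23.6 CPM for Lrig1 GL and 2.69 CPM for Lgr5 GL cells on the common scale. As for Il33, the libraries did not overlap at 4 of the 6 time points, from 2w pw1 on. Of the 18 Lgr5 GL libraries 6 held no Il1rn count, against 1 of 18 in Lrig1 GL cells.

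Casp1 was 1.13 higher in Lrig1 GL cells on the log2 scale (SE 0.326, 95% interval 0.47 to 1.8, edgeR adjusted p = 0.0077). The groups did not overlap at 4w pw1 and at 8w pw1, when Lrig1 GL libraries ran from 26.6 to 61.3 CPM and Lgr5 GL libraries from 2.15 to 11.4 CPM, and overlapped at the other 4 time points. A correction for GC content ended this call, at 0.73 and an adjusted p of 0.104. Pycard was 0.52 higher (SE 0.113, 0.29 to 0.75, adjusted p = 0.000644), with medians of 186 and 124 CPM and no overlap at 3 of the 6 time points.

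Aim2 went the other way, with an edgeR adjusted p of 0.0264 for a higher level in Lgr5 GL cells. No fold change is given because 11 of 18 Lrig1 GL libraries held no count and the fitted value depends on the prior count. Every Lgr5 GL library held Aim2 counts although their number was small. With the Lgr5 GL counts thinned to the depth of the Lrig1 GL libraries the adjusted p was 0.0253. The call was lost without any 1 of 3 Lgr5 GL libraries: library c at 0w (adjusted p = 0.079), replicate 2 at 1w pw1 (0.0507) and library a at 8w pw1 (0.0771).

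Il1r1 had nearly equal medians in both populations, 18.5 CPM in each, and a difference of -0.37 with a 95% interval from -0.94 to 0.20 on the log2 scale. Il18 had medians of 3.89 CPM for Lrig1 GL and 3.28 CPM for Lgr5 GL cells, and an interval from -1.04 to 1.74. For Il18 this leaves room for a difference of more than 2-fold in either direction.

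Of 103 further symbols of the pathway, from other ligands and receptors to NF-kB targets, sensors and gasdermins, 68 had a row and 59 were tested in Lrig1 GL cells. None of the 59 was called by edgeR across the time course, with 11 at an unadjusted p under 0.05 and 8 called by the likelihood ratio test and 6 by DESeq2. For Lgr5 GL cells 76 had a row, 67 were tested, and 1 was called, also with 11 at an unadjusted p under 0.05, 8 by the likelihood ratio test and 5 by DESeq2. These shares of 18.6% and 16.4% at an unadjusted p under 0.05 were below those of all genes, 20.5% and 16.9%. Against 0w edgeR called none at any time point in either population. In Lrig1 GL cells the share was 16.9% beside 11% of all genes at 1w pw1. It was 15.3% beside 22.9% at 8w pw1 and 20.3% beside 18.5% at 1w pw2. The Lgr5 GL shares were 17.9% beside 18.6%, 7.46% beside 5.94% and 4.48% beside 6.42%. At 8w pw1 in Lrig1 GL cells, 4 of 5 gasdermin and release genes were under 0.05, the highest share of any subgroup. In the comparison of 1w pw2 with 1w pw1 edgeR called none in either population, and the unadjusted p was under 0.05 for 4 genes (Lrig1 GL) and 14 genes (Lgr5 GL), or 6.78% beside 8.87% of all genes and 20.9% beside 16.8%.

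The called gene was Txnip, a thioredoxin-binding protein that can bind the sensor NLRP3. Its levels in Lgr5 GL cells were 232, 293 and 168 CPM at 0w, 34.6, 99.6 and 92.0 CPM at 1w pw1, 113, 114 and 92.5 CPM at 2w pw1 and 24.3, 78.4 and 56.5 CPM at 4w pw1. All 9 of these later libraries lay below all 3 at 0w, while 19.8%, 13.2% and 14.4% of all genes did not overlap with 0w at these times. At 8w pw1, at 208, 307 and 222 CPM, it overlapped 0w again, and at 1w pw2, at 183, 180 and 91.1 CPM, 2 of 3 libraries lay within the 0w range. The change was widest at 4w pw1, with a log2 fold change of -2.10 (SE 0.436), and the edgeR adjusted p of the time course was 0.0369. No single time point was called by edgeR's quasi-likelihood test (adjusted p = 0.0634 at 1w pw1 and 0.0676 at 4w pw1). The change at 1w pw1 was called by DESeq2 (adjusted p = 0.00317), by the likelihood ratio test (0.0095), and without library c at 0w (0.0488) or library a at 4w pw1 (0.0435). The time course call was lost, leaving 0 genes, without any 1 of 8 libraries: library a at 0w, b or c at 2w pw1, c at 4w pw1, a, b or c at 8w pw1 and replicate 2 at 1w pw2. Txnip in Lrig1 GL cells was at 129, 463 and 168 CPM at 0w and at 46.5, 117 and 34.6 CPM at 1w pw1, with an adjusted p of 0.151 across the time course.

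**Figure D4:**
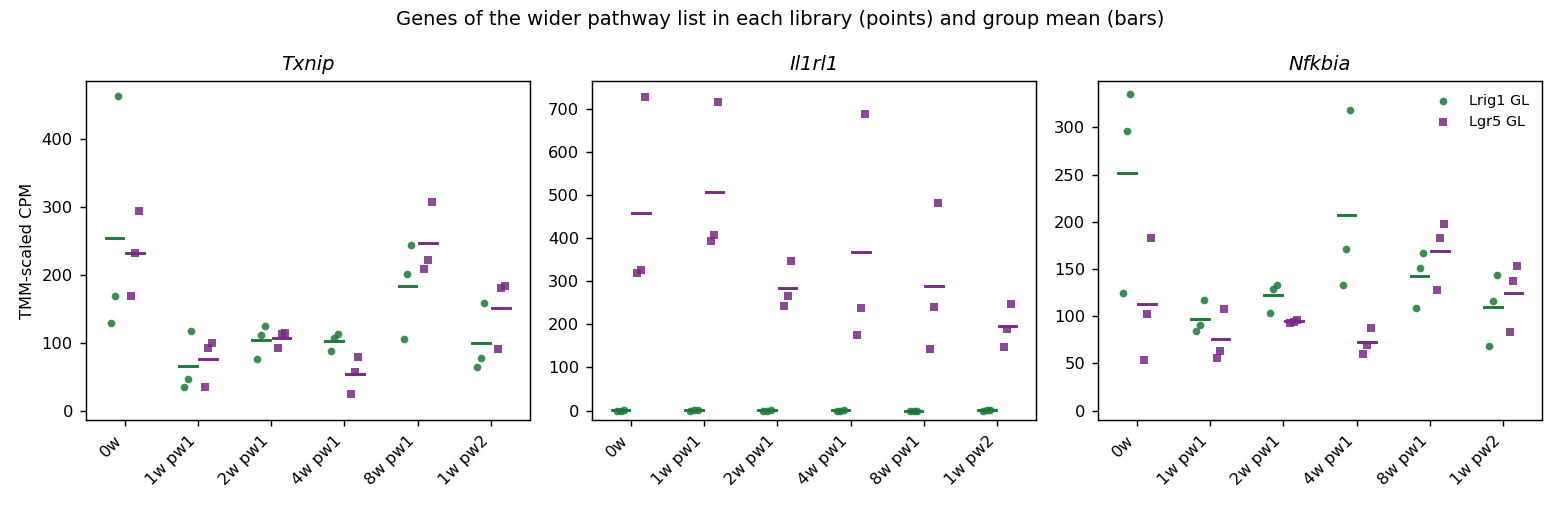
TMM-scaled CPM (linear axes) of Txnip, Il1rl1 and Nfkbia in every library at each time point, in Lrig1 GL (circles) and Lgr5 GL cells (squares), with bars at the group mean of 3 libraries. Txnip was lower from 1w pw1 to 4w pw1 than at 0w in Lgr5 GL cells, and Il1rl1 was near 0 in all Lrig1 GL and above 143 CPM in all Lgr5 GL libraries. Levels were scaled within each population's own table, not on a scale common to both.

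Among the other receptors, Il1rl1, which encodes the interleukin-33 receptor ST2, differed most between the tables. It held at most 2 counts in any Lrig1 GL library and 9 in all, and between 353 and 2258 counts in each Lgr5 GL library. The level in Lgr5 GL cells ran from 143 to 728 CPM with a median of 292 CPM. Of 18865 genes in both tables, 2 were above 50 CPM in every Lgr5 GL library and under 3 CPM in every Lrig1 GL library before TMM scaling, limits set after the values were seen. They were Il1rl1 and Gm12415, the gene that took up to 52.1% of the Lgr5 GL counts. Across the 18 Lgr5 GL libraries the Il1rl1 level moved with the Gm12415 share (Pearson's r = 0.789, both from the same libraries), and the part of Gm12415 in the Il1rl1 value was not tested. Il1rl1 was not called across the time course in Lgr5 GL cells (adjusted p = 0.426).

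The ligand Il1f9, the interleukin-36 gamma of keratinocytes, had the highest mean count of the other ligands. Its Lrig1 GL levels were 0, 0.406 and 17.3 CPM at 0w and 72.1, 49.8 and 72.5 CPM at 1w pw1, and its adjusted p across the time course was 0.134. Lgr5 GL libraries stood at 37.2, 0.566 and 0 CPM at 1w pw1, with an adjusted p of 0.203. The related antagonist Il1f5 had adjusted p values of 0.758 and 0.952, and the interleukin-36 receptor Il1rl2 of 0.447 and 0.913, in Lrig1 GL and Lgr5 GL cells.

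The 2 signalling genes and 2 NF-kB factors with the highest mean counts over both tables were found in every library and were not called by edgeR's quasi-likelihood test. In Lrig1 GL and Lgr5 GL cells the adjusted p across the time course was 0.947 and 0.998 for the kinase Irak1, 0.763 and 0.585 for the adaptor Tab2, 0.581 and 0.649 for Rela and 0.343 and 0.774 for Rel. Nfkbia, the inhibitor that NF-kB switches on to end its own signal, was at 124, 296 and 335 CPM at 0w and at 91.1, 83.7 and 117 CPM at 1w pw1 in Lrig1 GL cells. Its groups did not overlap there, as for 13.9% of all genes, and its adjusted p across the time course was 0.151. For Sod2, a mitochondrial NF-kB target, it was 0.533 and 0.754.

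Of the partners and release factors, the NLRP3-binding kinase Nek7 had an adjusted p of 0.496 and 0.389. Ninj1, a membrane rupture protein, had 0.182 and 0.106, and the gasdermin Gsdme 0.338 and 0.905. The calpains Capn2 and Capn1, proteases of which some cut interleukin-1 alpha, had 0.792 and 0.738, and 0.308 and 0.503.

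For the 6 genes whose mean count reached 10 in both tables, the genes with the most similar pattern were sought among 10370 others, by Pearson's r of log2(CPM + 1) over the 18 libraries of a population, averaged over populations. Il1r1 was nearest to Cpeb2, Rabgap1l and Rel, with mean r of 0.772, 0.712 and 0.703. Il1rn was nearest to Tmx4, Duox1 and Ppfia1, between 0.666 and 0.689. Il33 was nearest to Sec23b, Got1 and Mnat1, between 0.590 and 0.606. Casp1 was nearest to Tial1, Cltc and 2610044O15Rik8, between 0.588 and 0.615, and Pycard to Gpr108, Acer1 and Parl, between 0.609 and 0.626. These values describe likeness over libraries that share depth and time point, and the highest values among all genes compared are given.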

How the data were processed

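Mini-bulk RNA-seq of sorted tdTomato+ cells was analysed for 36 libraries, 3 in each of 12 groups. The authors trimmed reads with Trim Galore 0.5.0, aligned them with HISAT2 2.2.01 to mm10 and counted exons per gene name with featureCounts 1.6.12 (versions from the submitters' processing notes), and deposited raw counts, 1 table per population. The kit does not mark strand, so reads of overlapping or antisense genes cannot be told apart. Of the columns, 15 matched 1 sample and 21 matched a group only, where the libraries are called a, b and c. Per the study's figure legend the groups held 3 mice; the labels do not tie a library to a mouse.

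From the counts, genes were filtered with filterByExpr (minimum count 10), scaled by TMM and fitted over the 6 groups of a population with edgeR 4.0.16 (R 4.3.3) by the quasi-likelihood test, with a prior count of 0.125 for fold changes. P-values were adjusted by Benjamini-Hochberg over all genes. A call needed an adjusted p under 0.05 and, against 0w or across the time course, a log2 fold change above 1 in size. The log2 value given for a time course is its most extreme difference from 0w. Populations were compared in 1 model of both tables, with a call at an adjusted p under 0.05. SE is the standard error, and intervals are 95% intervals. Positions and exon lengths came from GENCODE M21 on GRCm38, which held 99.4% and 99.3% of the gene names.

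All 9 genes were described whatever their values. Of the other pathway genes, those called across the time course or between the wounds were named, and otherwise the 2 per subgroup with the highest mean count; Il1rl1 is among these. Similar genes were the 3 with the highest mean correlation, without symbols starting with Gm or ending with Rik. Those of Il18 are not reported here. The genes and lists were chosen with earlier results of these data known. The scripts were tested on simulated data. Alternatives were DESeq2 1.42.0, its size factors, the likelihood ratio test, other filters and prior counts, 2 surrogate variables (sva 3.50.0), a GC correction, a replicate block, removal of Gm12415, thinned Lgr5 GL counts and each library left out in turn.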

Additional observations from a re-analysis of the deposited data

How the results depend on the processing

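No call of the 9 genes was made across the time course, or between 1w pw2 and either 1w pw1 or 8w pw1, in either population under any alternative run, and the 5 called differences between populations kept their direction. The GC correction gave 1 call at single time points in Lrig1 GL cells (Pycard at 1w pw2, log2 fold change -1.38) and ended the call of Casp1 between populations (0.73, and 0.72 together with the replicate block, where the adjusted p was 0.121). Of the other pathway genes, 0 were called across the time course in Lrig1 GL cells, against 8 by the likelihood ratio test, 6 by DESeq2 and 0 to 1 with a library left out (1 without replicate 3 at 0w). Of all 14306 genes the main run called 233 there, the likelihood ratio test 1999 and DESeq2 1880. For Lgr5 GL cells 1 was called, against 8 by the likelihood ratio test, 5 by DESeq2, 2 with a mean of at least 10 counts, 3 with the GC correction and 3 with the block and GC correction. With a library left out this count ran from 0 to 2 (2 without library a at 4w pw1).

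Values that changed sign had no call in either setting, and the cause was not tested. With 2 surrogate variables the log2 fold change of Il1r1 in Lrig1 GL cells became -0.10 at 8w pw1 against 0w and -0.43 at 1w pw2 against 1w pw1, and that of Aim2 in Lgr5 GL cells 1.03 at 1w pw2 against 1w pw1. The remaining changes of sign within a population all concern 1w pw2 against 1w pw1. With the GC correction Il1r1 (-0.36) and Casp1 (-0.34) in Lrig1 GL and Casp1 (-0.47) in Lgr5 GL cells became negative.

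The labels do not say what the replicate numbers stand for. Deviations of same-numbered libraries had a mean correlation of 0.00374 in Lrig1 GL (9 pairs) and -0.0102 in Lgr5 GL cells (3 pairs). For libraries of different number it was -0.00179 and 0.00514. Only 15 of the 36 libraries have a number, so whether libraries of the same number belong together was not settled. With the replicate block the change was -0.17 for Il18 in Lrig1 GL cells, and 0.98 for Il1rn, 1.72 for Il18 and -0.10 for Casp1 in Lgr5 GL cells. With the block and the GC correction it was -0.35 for Il1r1, -0.62 for Il18 and -0.053 for Casp1 in Lrig1 GL cells, and 0.55 for Il1rn, 1.26 for Il18 and -0.66 for Casp1 in Lgr5 GL cells. The block alone changed no call of the 9 genes.

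With a library left out, the change at 1w pw2 against 1w pw1 ran from -0.34 to 0.61 for Il1r1 in Lrig1 GL cells. In Lgr5 GL cells it ran from -1.52 to 7.02 for Il1rn and from -1.80 to 6.23 for Il18, both highest without replicate 3 at 1w pw1, the only library of that group with counts. It ran from -0.49 to 1.98 for Il33, from -2.59 to 0.00034 for Aim2, from -0.20 to 0.52 for Casp1 and from -0.60 to 0.064 for Pycard. The difference between populations ran from -0.71 to 1.26 for Il1a and from -0.50 to 1.47 for Il18. Depth limits Il1a in both populations and Aim2 in Lrig1 GL cells, where most libraries held no count. The order of the genes by level per kb was the same with plain library sizes in place of TMM scaling.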
